A study of Mus musculus with 2 samples.

Results

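Cytosolic ribosomal protein genes were taken as every annotated symbol that begins with Rpl or Rps and a digit, together with Rplp0, Rplp1, Rplp2 and Rpsa. Symbols of the S6 kinases (Rps6k) and of pseudogenes (-ps) were left out. The rule found 64 genes among 10101 named genes with values above 0 on both arrays, each read by 1 probe. Of these, 43 encode proteins of the large subunit and 21 proteins of the small subunit, and 5 of the 64 carry the name of a paralog (Rpl3l, Rpl7l1, Rpl36al, Rpl39l and Rps27l). The rule used no measured value.

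The RNA came from mouse haematopoietic progenitors that lack E2A, the gene of the transcription factor E47. The cells were infected with E47ER in one group and with bHLHER in the other, and 4-hydroxytamoxifen was added 48 h later for 6 h. ER is the usual name of an oestrogen receptor part that keeps a fused protein inactive until 4-hydroxytamoxifen binds; the labels say nothing more of what bHLHER holds. Both groups therefore share the E2A deficiency, an infection and the drug, no uninfected or untreated array was used here, and each group had 1 CodeLink array of 1 colour.

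Ribosomal proteins and ribosomal RNA form a small subunit, which reads the mRNA, and a large subunit, which joins amino acids. Cells make the proteins in matched amounts, and those left without a ribosome are degraded. Many mRNAs of this family begin with a run of pyrimidines, the 5′ terminal oligopyrimidine tract or TOP, through which mTOR signalling controls their translation. In blood cell precursors the family is known from Diamond-Blackfan anaemia, a failure of red cell production caused in most patients by loss of 1 copy of a ribosomal protein gene.

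Most ribosomal protein genes had a slightly lower intensity on the E47ER array. None differed by as much as 2-fold, which few of all measured genes did either. Of the 64, 63 lay above the floor, the median over all probes of an array (0.957 for E47ER and 0.953 for bHLHER), on both arrays. The median log2 ratio of E47ER over bHLHER was -0.19 in the 63 genes, against -0.05 in all 5534 genes above the floor on both arrays. The ratio was below 0 in 50 of the 63 members, when 55.8% of all measured genes were below 0. Each value comes from 1 array per group, so no difference has a replicate check and no p-value is given; "higher" and "lower" here name sizes only.

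The members differed little among themselves. Their log2 ratios ran from -0.66 to 0.31 with an SD of 0.23 over genes, while the SD over all measured genes was 0.44. The narrow spread was not particular to them, since 57 mitochondrial ribosomal protein genes had an SD of 0.24. Brightness differed too, since 3277 of the 5534 measured genes had a geometric mean intensity up to 10, and 55 of the 63 members one above 200. Above 200 the middle quartiles ran from -0.35 to -0.07 in the members and from -0.28 to 0.10 in the 72 other genes. At a size threshold of 2-fold, 0 of 63 members were higher and 0 lower, where 2.31% of all measured genes were higher and 0.813% lower. Those shares are small for a list of 63 genes. A smaller threshold of 0.322 in size on the log2 scale, reached when the higher intensity is 25% above the lower, was set as well. Past it, 17 members were lower, where 20.5% of all measured genes were. None was higher past it, where 14.4% of all measured genes were. The log2 ratio of Rpl36 (-0.320) lay just inside this threshold and that of Rpl37a (-0.341) just past it. The only measured technical spread is that of 34 genes with 2 probes above the floor, whose log2 ratios differed by a median of 0.236 between probes; no member had a second probe.

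**Figure D1:**
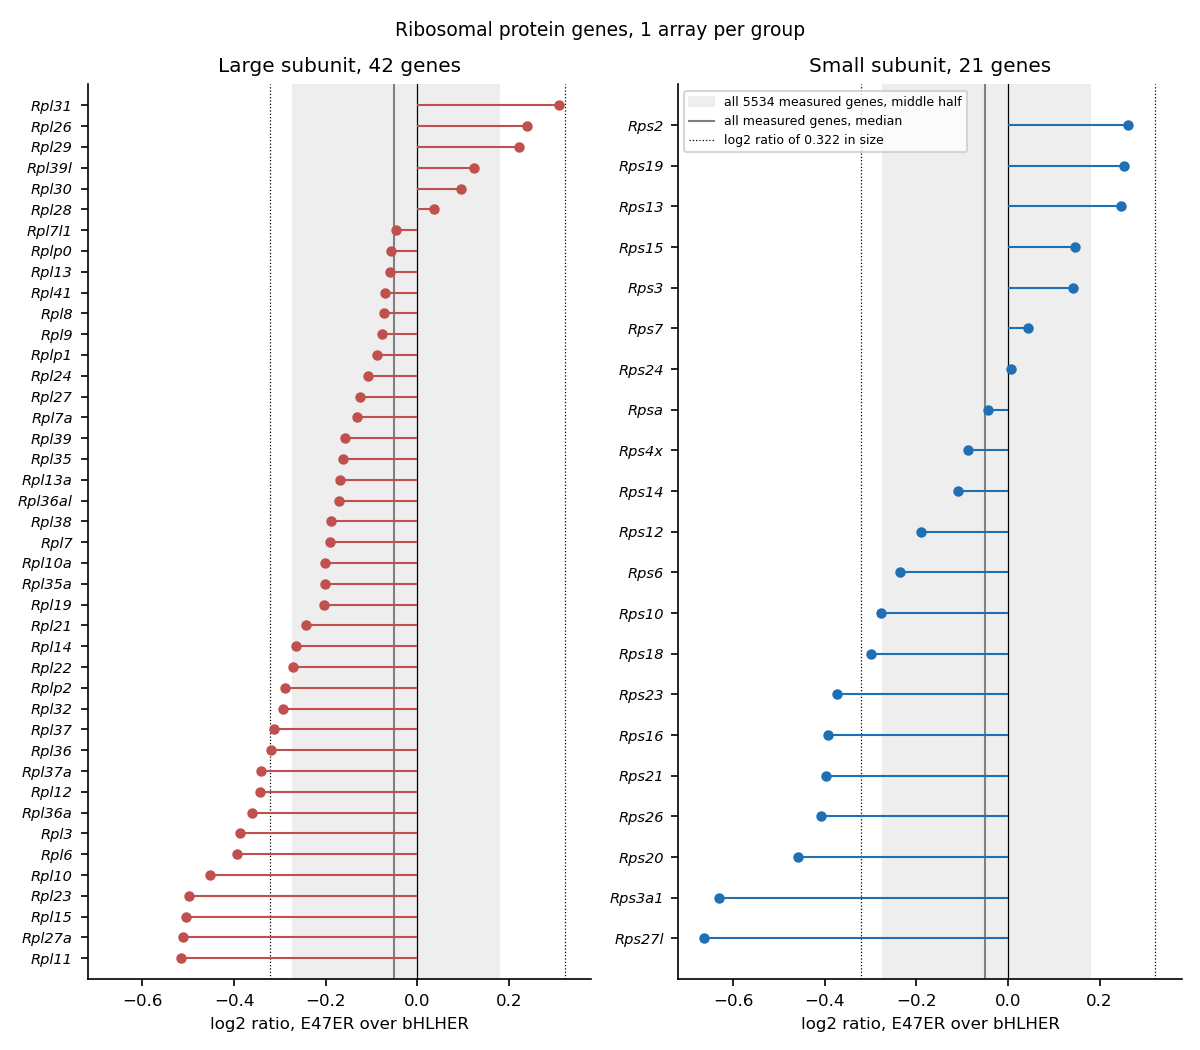
Log2 ratio of E47ER over bHLHER for each of the 42 large subunit genes (left) and 21 small subunit genes (right) above the floor, 1 array per group. The shaded band spans the middle quartiles of all 5534 measured genes, the grey line their median and the dotted lines the threshold of 0.322 in size; 36 large and 14 small subunit genes lie below 0.

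In the intensities as deposited, large and small subunit genes had nearly the same median. It was -0.19 in each, and the difference of large minus small was 0.00089 on the log2 scale. After quantile normalization the difference was -0.11. The spread was wider in the small subunit, with an SD of 0.28 over 21 genes against 0.20 over 42 genes. Of the large subunit genes 36 of 42 (85.7%) had a ratio below 0, and of the small subunit genes 14 of 21 (66.7%). Among all measured genes the share below 0 was 55.8%. After loess on brightness, 28 of 42 large and 11 of 21 small subunit genes were below 0. After quantile normalization 25 of 42 and 9 of 21 were. In the intensities as deposited, 10 of 42 large subunit genes (23.8%) and 7 of 21 small subunit genes (33.3%) were lower past the smaller threshold. Of all measured genes 20.5% were, so the large subunit share was near that of all genes. Genes are not replicates of a condition, so these shares were not tested against each other.

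The ratios moved with the brightness of the probes, though not steadily. Ribosomal protein probes held 29 of the 50 brightest places on the E47ER array and 32 of 50 on the bHLHER array, and 55 of the 63 members had a geometric mean intensity above 200. Among the 72 other genes above 200 the median log2 ratio was -0.12, against -0.02 in the 3275 other genes up to 10. Between these ranges it was -0.08 in the 1648 other genes from 10 to 50 and -0.14 in the 476 from 50 to 200. The median of the other genes thus did not fall further above 200. The 3 members from 50 to 200 had a median of 0.04, and the members above 200 had -0.20. There, 46 of the 55 members (83.6%) and 45 of the 72 other genes (62.5%) were below 0. Lower past the smaller threshold were 16 bright members (29.1%) and 14 bright other genes (19.4%). Higher past it were 0 members and 7 other genes (9.72%). Over the 63 members the log2 ratio and the mean log2 intensity had a Spearman rho of -0.51 and a Pearson r of -0.28. Over all 5534 measured genes the same values were weaker, -0.10 and -0.08. Genes share both arrays and so are not independent.

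**Figure D2:**
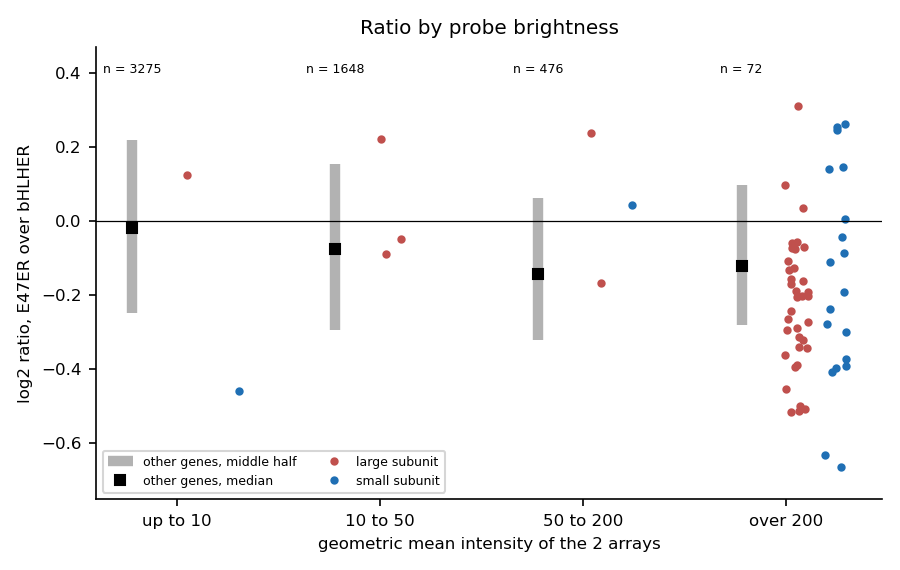
Log2 ratio of E47ER over bHLHER by geometric mean intensity of the 2 arrays. Points are large (red) and small (blue) subunit genes, squares and bars the median and the middle quartiles of the other measured genes; other genes above 200 have a median of -0.12 and the members there -0.20.

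Scaling that removes a trend with brightness took most of the shared difference away. Loess and quantile normalization were both computed with the members included, and members were 55 of the 127 named genes above 200. A difference shared by the members would be removed in part with the trend, so these scalings cannot tell them apart. After loess of the ratio on brightness the median of the members was -0.05, with 7 members lower past the smaller threshold and 5 higher, where 16.4% and 17.6% of all genes were. After quantile normalization it was -0.02, with 4 lower and 3 higher, where 19.1% and 15.2% of all genes were. With quantile normalization the small subunit median turned to 0.07 and the large subunit median was -0.04. Of the 17 lower members, Rps20, Rps27l and Rps3a1 stayed past the smaller threshold under both. Rpl31, Rps13 and Rps19 were higher past it under both. The pan-leukocyte genes moved the other way: 17 of 22 had a ratio above 0, where 2446 of all 5534 measured genes did. The pan-leukocyte median was 0.33. Relative to that median the members' median was -0.52 and 51 of 63 were lower past the smaller threshold, but so were 57.3% of all genes. With that centring all 63 members lay below 0, so the directions given for single members below hold for the intensities as deposited.

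**Figure D3:**
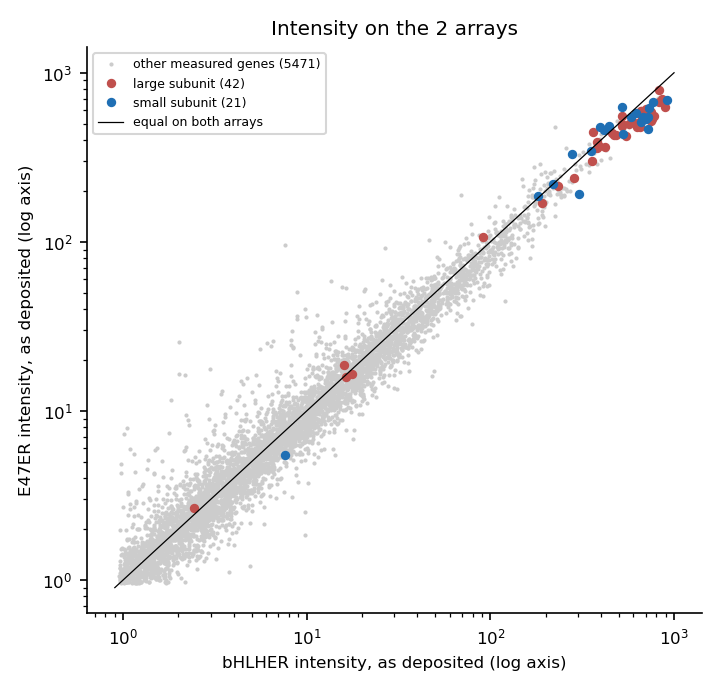
Deposited intensity on the E47ER array against the bHLHER array, both on log axes, for 5471 other measured genes (grey), 42 large (red) and 21 small (blue) subunit genes. The members lie mostly at the bright end, close to and below the line of equal intensity, with the brightest at 789 on the E47ER array and 911 on the bHLHER array.

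Among the proteins of the large subunit, the lowest ratio belonged to Rpl11, which joins the 5S RNA and, when free, binds the p53 inhibitor Mdm2. Its intensity was 521 on the E47ER array and 745 on the bHLHER array, 1.43-fold lower (log2 -0.52). Rpl27a had intensities of 627 with E47ER and 894 with bHLHER (log2 -0.51). Quantile normalization brought them to -0.26 (Rpl11) and -0.18 (Rpl27a).

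Rpl15 and Rpl23 followed close behind. Rpl15, a core protein of the large subunit, had 533 with E47ER and 756 with bHLHER (log2 -0.51). Rpl23, which lies on the face toward the small subunit and also binds Mdm2, had 553 with E47ER and 782 with bHLHER (log2 -0.50). Rpl10, one of the last proteins to join and needed for the subunits to pair, had 477 with E47ER and 653 with bHLHER (log2 -0.45). The ratios of Rpl11, Rpl27a, Rpl15, Rpl23 and Rpl10 lay closer together than the probe difference, so their order has no support.

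The opposite end of the large subunit was held by Rpl31, Rpl26 and Rpl29. Rpl31, at the exit of the peptide tunnel, had the highest ratio of all members, with 447 on the E47ER array and 360.3 on the bHLHER array, 1.24-fold higher (log2 0.31). Rpl26, also at the tunnel exit, had 107 with E47ER and 91.1 with bHLHER (log2 0.24). Rpl29 had 18.6 with E47ER and 16.0 with bHLHER (log2 0.22). Their neighbours around the tunnel had ratios below 0. Rpl19, Rpl22, Rpl35 and Rpl39 had log2 ratios of -0.20, -0.27, -0.16 and -0.16.

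The acidic stalk, which recruits the elongation factors, is formed by Rplp0 and by Rplp1 and Rplp2, and Rpl12 sits at its base. Rplp0 had 499.6 with E47ER and 519.9 with bHLHER (log2 -0.06). Rplp1 had 16.6 and 17.6 in the same order (log2 -0.09), and Rplp2 had 577 and 704 (log2 -0.29). All 4 stalk genes, with Rpl12 at -0.34, were lower with E47ER in the deposited intensities, like 50 of the 63 members, and only Rpl12 passed the smaller threshold. Rplp0 turned to 0.08 after loess and 0.05 after quantile normalization, and Rplp2 to 0.01 after the latter.

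Some large subunit proteins have known roles in particular mRNAs or cells. Rpl22, which in mice is needed for the development of alpha-beta T cells, had 551 with E47ER and 665 with bHLHER (log2 -0.27). Rpl38, needed in mouse embryos for the translation of Hox mRNAs, had 498 with E47ER and 567 with bHLHER (log2 -0.19). Rpl13a, which in human myeloid cells is released from the ribosome to silence inflammatory mRNAs, had 170.4 and 191 (log2 -0.17). Rpl10a had 516 and 593 (log2 -0.20). These 4 genes lay close to the median of all members.

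Among the proteins of the small subunit the lowest ratio was that of Rps27l, a paralog of Rps27 whose gene is a known target of p53. It read 192 with E47ER and 304 with bHLHER, 1.58-fold lower (log2 -0.66). Rps3a1, a protein of the subunit body, had 467 with E47ER and 724 with bHLHER, 1.55-fold lower (log2 -0.63). These were the lowest ratios of all members, at percentiles 4.16 and 4.99 of all measured genes, and after loess both were still past the smaller threshold.

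Rps20, of the subunit head, read dimly, at 5.50 with E47ER and 7.56 with bHLHER (log2 -0.46). Rps26, at the mRNA exit and mutated in Diamond-Blackfan anaemia, had 531 with E47ER and 705 with bHLHER (log2 -0.41). Rps16, the brightest probe of the bHLHER array, had 694 with E47ER and 911 with bHLHER (log2 -0.39). Rps21 and Rps23 were lower by similar amounts, with log2 ratios of -0.40 and -0.37.

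The small subunit also held 7 of the 13 members with a ratio above 0. Rps2, at the mRNA entry, had 475 with E47ER and 396 with bHLHER (log2 0.26). Rps3, its neighbour there, had 487 and 441 (log2 0.14). Rps19, in the head of the subunit and the gene most often mutated in Diamond-Blackfan anaemia, had 624 with E47ER and 523 with bHLHER (log2 0.25). These genes were higher with E47ER although none passed the smaller threshold.

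Rps13 had 329.5 with E47ER and 278 with bHLHER (log2 0.25), and Rps15, of the head, 459 and 415 (log2 0.15). Rps6, the substrate of the S6 kinases, had 618 with E47ER and 728 with bHLHER (log2 -0.24), but its ratio was -0.09 after loess and 0.07 after quantile normalization. Rps14, whose loss of 1 copy in humans impairs red cell production in a form of myelodysplasia, had 575 with E47ER and 621 with bHLHER (log2 -0.11). Rps4x had 548 and 582 (log2 -0.09), and Rpsa, also known as the laminin receptor, 344 and 355 (log2 -0.04). Rps14, Rps4x and Rpsa turned above 0 under both of those scalings, to between 0.03 and 0.15. The 8 head proteins measured thus ran from -0.46 (Rps20) to 0.25 (Rps19) and did not share a direction.

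The paralogs did not share a direction either. Rpl36al had 428 with E47ER and 482 with bHLHER (log2 -0.17), and Rpl36a 559.7 and 719 (log2 -0.36). Rpl39l, known mainly from testis, was dim at 2.65 with E47ER and 2.44 with bHLHER (log2 0.12), while Rpl39 had 592 and 659.5 (log2 -0.16). Rpl3l, a gene of skeletal muscle and heart, was below the floor on both arrays (0.105 and 0.120), and no fold is given for it; Rpl3 had 420.5 and 550.2 (log2 -0.39). Rpl7l1, which acts in ribosome assembly, had 15.8 and 16.3 (log2 -0.05) and Rpl7 614 and 701 (log2 -0.19). Near-identical copies are a limit for the whole family. 49 of the 63 measured members have pseudogenes named after them in the RefSeq table, and whether a probe also reads their transcripts was not tested. Rpl5, Rpl22l1, Rps19bp1, Rps27 and Rps27a, named in the plan, were not analysed here.

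Members that carry snoRNA genes, whose products guide the modification of ribosomal RNA, were compared with the rest. In the RefSeq annotation of assembly GRCm38.p6, 23 of the 63 measured members hold at least 1 snoRNA gene within their span. The median log2 ratio was -0.29 in these 23 and -0.17 in the other 40. Split by subunit, the 15 large subunit hosts had a median of -0.29 and the 8 small subunit hosts -0.12, above the small subunit median of -0.19. Both kinds overlapped widely, since hosts ran from -0.63 (Rps3a1) to 0.26 (Rps2) and the others from -0.66 (Rps27l) to 0.31 (Rpl31).

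Promoter sequences were looked at because the members' ratios lay within a narrow range. The RefSeq promoter windows of GRCm38.p6, from 250 bases before to 50 after an annotated start, were matched for 53 of the 64 members by gene identifier, with 64 windows. A run of at least 5 pyrimidines led by C and beginning within 10 bases of the start, on the coding strand, was found in 33 of these windows (51.6%), in 30.1% of the windows of protein-coding genes and in 29.7% of all windows. The sequences below run from 15 bases before to 15 after the start of 3 genes with a lower ratio and 2 with a higher one, with that run in capitals as far as the printed stretch goes.
Rpl27a (chr7:109519180-109519209, plus strand): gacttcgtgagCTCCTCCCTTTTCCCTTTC
Rpl15 (chr14:18270972-18271001, minus strand): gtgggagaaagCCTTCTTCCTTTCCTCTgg
Rps6 (chr4:86857353-86857382, minus strand): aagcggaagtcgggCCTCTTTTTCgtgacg
Rpl31 (chr1:39367836-39367865, plus strand): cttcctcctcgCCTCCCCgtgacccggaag
Rps2 (chr17:24720048-24720077, plus strand): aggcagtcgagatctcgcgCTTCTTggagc
All the printed genes hold the run, so they show only that it occurs with ratios on either side of 0. The run was not found near the annotated starts of Rps3a1 or Rpl11, with low ratios, nor of Rps13 or Rpl26, with high ones. The search depends on the annotated start, since Rps24 and Rpl35a held the run in only some of their windows. Whether the mRNAs of members without the run begin with a TOP was not tested. The 31 measured members with the run in any window had a median log2 ratio of -0.20. The 21 measured members with a window but no such run had -0.09. The ranges overlapped, from -0.66 to 0.31 and from -0.63 to 0.25.

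E boxes, the sites of E proteins and related factors, were searched on both strands of the whole window, each motif counted whether or not it overlapped another. CAGGTG was in 8 of the 64 windows (12.5%), in 19.7% of the windows of protein-coding genes and in 20.2% of all windows. CAGCTG was in 3 of the 64 (4.69%), against 15.6% and 16.3% in the same order. CACGTG, the site of Myc, was in 6 of the 64 (9.38%), against 7.84% and 7.15%. For comparison, CCGGAAG, a site of Ets factors, was in 25 of the 64 (39.1%), against 11.6% and 8.86%. These are matches of letters and not measured binding sites.

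Stretches with the E box in capitals are given for 4 members that hold CAGGTG or CAGCTG upstream of the start, to show the matched letters in their surroundings.
Rpl22 (chr4:152325535-152325584, plus strand): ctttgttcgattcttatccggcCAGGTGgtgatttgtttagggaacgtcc
Rps10 (chr17:27635390-27635439, minus strand): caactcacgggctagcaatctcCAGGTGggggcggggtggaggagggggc
Rpl35 (chr2:39005274-39005323, minus strand): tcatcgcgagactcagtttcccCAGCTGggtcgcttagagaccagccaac
Rpl6 (chr5:121204344-121204393, plus strand): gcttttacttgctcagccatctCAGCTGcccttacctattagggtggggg
The 6 measured members with CAGGTG had log2 ratios from -0.28 to -0.07 and a median of -0.17, and the 46 without it a median of -0.20. With CAGCTG there were 2, Rpl35 at -0.16 and Rpl6 at -0.39. The 24 measured members with CCGGAAG had a median of -0.26 and the 28 without it -0.15, over ranges that overlapped. Members with an E box thus lay inside the range of the others.

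Genes for the assembly of ribosomes were lower too, at dimmer probes. Of 40 rRNA processing and assembly genes, 32 (80%) were below 0, where 55.8% of all measured genes were. Past the smaller threshold 18 (45.0%) were lower, where 20.5% of all measured genes were, and 2 were higher, where 14.4% of all genes were. The median log2 ratio was -0.29. The lowest was Gnl3 (nucleostemin), with 34.5 on the E47ER array and 65.3 on the bHLHER array (log2 -0.92), and next Emg1, a methyltransferase of the small subunit RNA, with 79.9 and 138 (log2 -0.79). Ddx47 (log2 0.53) and Rrp1 (log2 0.47) were highest. The median stayed within 0.1 of this value after loess and quantile normalization, and was -0.42 with a floor at the 90th percentile.

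In the intensities as deposited, other parts of the translation machinery had medians nearer to 0 than the -0.19 of the members. Of 57 mitochondrial ribosomal protein genes, 42 (73.7%) were below 0, where 55.8% of all measured genes were. The median of the 57 was -0.16. Past the smaller threshold 15 (26.3%) were lower and 0 higher, against 20.5% and 14.4% of all measured genes. Mrpl53 (log2 -0.74) and Mrpl36 (log2 -0.60) were lowest and Mrpl27 (log2 0.29) and Mrpl11 (log2 0.28) highest. Of 19 genes of RNA polymerases I and III and their factors, 4 (21.1%) were lower past that threshold, near the share of all genes, and 1 (5.26%) higher, with a median of -0.15. Gtf3c4 (log2 -0.79) and Polr1a (log2 -0.44), the largest subunit of polymerase I, were lowest. Ubtf (log2 0.56), the activator of polymerase I, and Taf1b (log2 0.18) were highest. After loess the mitochondrial median was -0.09 and the polymerase median -0.08, against -0.05 in the members. After quantile normalization they were -0.12 and -0.11, against -0.02 in the members, so the order against the members turned.

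Genes outside the family whose mRNAs carry a 5′ TOP had a median of -0.12 over 17 genes, with 4 (23.5%) lower past the smaller threshold, near the share of all genes, and 0 higher. Vim, the intermediate filament vimentin, which is also abundant in stromal cells, was lowest at 93.8 with E47ER and 168 with bHLHER (log2 -0.84), and Eif2s3x next (log2 -0.53). Naca (log2 0.28) and Fau (log2 0.24), which encodes a small subunit protein under a name the rule does not take, were highest. Of 18 initiation and mTOR genes, 4 (22.2%) were lower past it, again near the share of all genes, and 1 (5.56%) higher, with a median of -0.01. In none of the mitochondrial, polymerase, 5′ TOP, initiation and assembly lists was a gene past 2-fold. Of all measured genes 2.31% were higher and 0.813% lower past 2-fold, small shares for lists of this size. Eif4e, the cap-binding protein, had 63.6 with E47ER and 95.6 with bHLHER (log2 -0.59), and Sesn2 had a log2 ratio of -0.64. Eif4ebp2 (log2 0.56), an inhibitor of Eif4e, and Tial1 (log2 0.23) were highest. The S6 kinases above the floor, Rps6ka3, Rps6kb2 and Rps6ka5, had log2 ratios of 0.12, 0.03 and -0.23.

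The genes around Mdm2 and p53, which unassembled ribosomal proteins feed into, did not share a direction. Of 10 measured, 5 were higher past the smaller threshold and 3 lower, against 14.4% and 20.5% of all measured genes. The median of 0.05 depended on the floor, since it was -0.26 with no floor and 0.41 with one at the 75th percentile. Cdkn1a, the cell cycle inhibitor p21, was the 1 past 2-fold, at 59.5 with E47ER and 25.6 with bHLHER (log2 1.22), and Trp53inp1 next (log2 0.52). Mdm2 had 1.61 and 2.73 (log2 -0.76) and Ccng1 14.1 and 22.3 (log2 -0.66). Rps27l, itself a p53 target, lay with the lower of these genes.

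**Figure D4:**
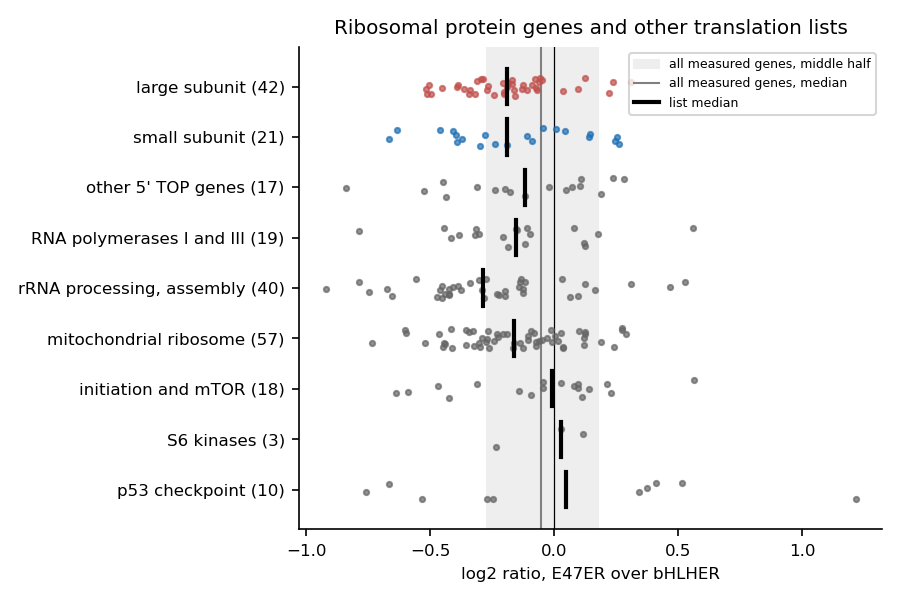
Log2 ratio of E47ER over bHLHER for each gene above the floor in the 2 subunits and in 7 other lists, with the number of genes in brackets. Black bars are list medians, the band the middle quartiles and the grey line the median of all measured genes; the assembly list is lowest at -0.29, and both subunits lie at -0.19.

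Markers of cell types differed between the arrays as well, and not all in the same direction. Pan-leukocyte genes, mostly higher with E47ER, summed to 813 intensity units with E47ER and 565 with bHLHER. Cd52 (log2 1.35) and Laptm5 (log2 1.09) were past 2-fold, and Cd53 (log2 -0.56) and Lcp1 (log2 -0.15) were lowest. The 15 stromal and fibroblast genes above the floor went the way of the ribosomal protein genes, with a median of -0.65. The stromal sums were 282 with E47ER and 347 with bHLHER. S100a6 alone made up most of both sums, at 202 with E47ER and 234 with bHLHER (log2 -0.21). Of the 15, 14 (93.3%) were below 0, where 55.8% of all measured genes were. Bgn (log2 -1.16), Col6a1 (log2 -1.15) and Timp3 (log2 -1.08) were past 2-fold, and Igfbp4 (log2 0.73) and Serpinh1 (log2 -0.02) were highest. In bulk RNA a lower share of a cell type and less RNA per cell cannot be told apart, and the part of cell makeup in the ribosomal protein ratios was not tested. Of 13 progenitor markers with values, 10 were above the floor on both arrays with a median of 0.12, while Gata2, Mpo and Cebpa were below it on both. They did not share a direction. Il7r, the receptor chain for interleukin-7, was past 2-fold at 25.2 with E47ER and 6.05 with bHLHER (log2 2.06), with Spi1 next (log2 0.34), and Lmo2 (log2 -0.82), Hoxa9 (log2 -0.52) and Meis1 (log2 -0.47) were lowest.

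**Figure D5:**
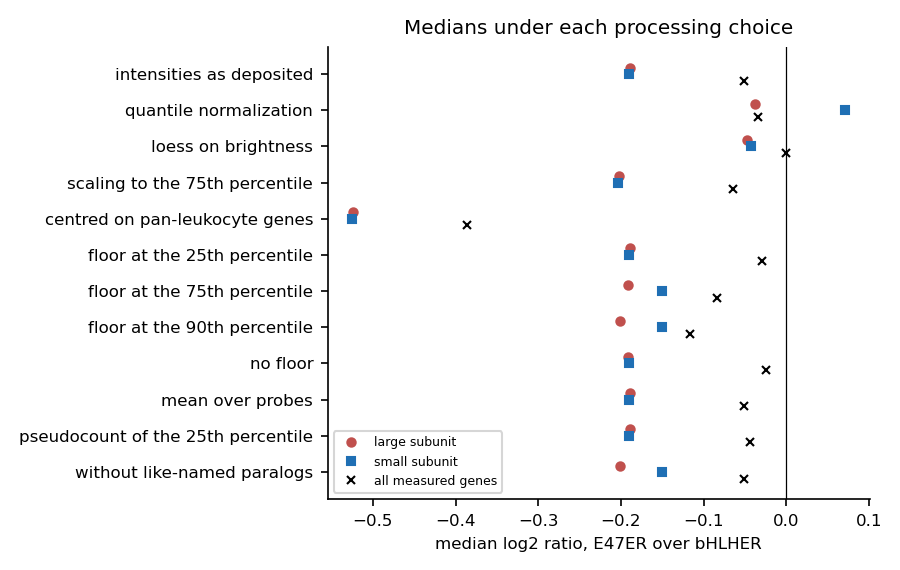
Median log2 ratio of E47ER over bHLHER for large subunit genes (circles), small subunit genes (squares) and all measured genes (crosses) under the intensities as deposited and 11 alternatives. Both subunit medians lie near -0.19 for the deposited intensities, near -0.05 after loess and near -0.52 when centred on pan-leukocyte genes.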

How the data were processed

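The deposited table held 1 intensity per probe and array for 20289 probes. Per the labels the arrays were CodeLink mouse arrays with Cy5 label; for scanner software, background correction and scaling, the sources used here name none. The deposited intensities are linear and were used unscaled, since their medians were 0.957 (E47ER) and 0.953 (bHLHER). Missing values numbered 119 and 125, and 45 and 84 probes lay at or below 0. The number of arrays limits the precision.

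The platform annotation named 10349 probes with 1 symbol each and left 9940 unnamed here; symbols matched the RefSeq table of GRCm38.p6. For several probes of a gene, the one with the highest mean log2 was taken. No test was made with 1 array per group.

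Members and lists were chosen with earlier results of these data known. Named genes are the 6 highest and 6 lowest members, a fixed list, and the 2 highest, 2 lowest and any 2-fold genes of each other list, marker lists included; further names were chosen after their values were seen. Role groups and brightness ranges were also set after seeing the data.

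Alternatives were quantile normalization, loess (limma 3.58.1, R 4.3.3, span 0.3), 75th percentile scaling, centring on pan-leukocyte genes, floors at the 25th, 75th and 90th percentile or none, the mean over probes, a pseudocount and leaving out paralogs. The procedure was tested on simulated data, with a known shift given to some genes, small random noise and no trend of the ratio with brightness. That check does not bear on the trend with brightness seen here.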

Additional observations from a re-analysis of the deposited data

How the results depend on the processing

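No paired analysis was possible because there was a single array on either side, which also leaves no replicate to omit. Intensities as deposited gave a median of -0.19 for all members and for each subunit. Quantile normalization gave -0.019 for all members, -0.038 for the large and 0.071 for the small subunit, a large minus small difference of -0.11, and a member median above that of all genes by 0.015; 4 members were lower past the threshold of 0.322, 3 higher and 31 below the median of all genes, against 48. Loess on brightness gave -0.046, -0.048 and -0.042, with 7 members lower and 5 higher. Centring on pan-leukocyte genes moved every log2 ratio down alike, to -0.52 for all members and each subunit and -0.39 for all measured genes, with 51 members lower past that threshold. The 3 scalings therefore set the size of the shared difference, and the cause was not tested. Over the other 8 alternatives these summaries stayed within 0.1 on the log2 scale or within 1.5 times their count. Of the other lists, the 5′ TOP median turned to 0.0028 after loess, and the progenitor marker median to -0.21 with the centring and to -0.0034 both without a floor and with one at the 75th percentile. The p53 checkpoint median of 0.048 was -0.26 without a floor, 0.41 with floors at the 75th and 90th percentile and -0.29 with the centring. With 1 array per group the variation between samples is unmeasured for every ratio, and the probe difference of 0.236 does not stand in for it.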

Other observations

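The measured members lie on 19 chromosomes. All 4 members on the X chromosome (Rpl10, Rpl36a, Rpl39 and Rps4x) were below 0, with a median log2 ratio of -0.26, but so were 46 of the 59 others and 55.8% of all measured genes. The 14 measured members without a named pseudogene had a median of -0.28, and the 49 with at least 1 had -0.19.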
